A study of Mus musculus with 6 samples.

Results

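The naive pluripotency network was followed here through 10 genes, Pou5f1, Nanog, Klf2, Klf4, Klf5, Esrrb, Nr0b1, Tbx3, Tcl1 and Zfp42, which were taken by gene name from the arrays. They had 15 probes among the 41174 probes of the array: 5 genes had 1 probe and 5 genes (Klf2, Klf5, Esrrb, Tbx3 and Zfp42) had 2. On all 6 arrays each of the 15 probes was well above background, and none was saturated. Each level below is the log2 of the spot's processed signal minus the 75th percentile of its array, so that 0 is that percentile. Levels are compared between arrays within a probe and never between probes.

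The 6 samples were male mouse cells of mixed C57BL/6 and 129SV background, differentiated in culture from Oct4-GFP transgenic embryonic stem (ES) cells towards primordial germ cells, the precursors of eggs and sperm. They carried a short hairpin vector against Dazl (hairpin 2 or hairpin 1) or a control vector, were harvested after 12 or 9 days of differentiation, and gave 1 array per vector and day. There were thus 4 Dazl knockdown arrays, 2 at day 12 and 2 at day 9, against 1 control array at each day. All vectors also carried the red fluorescent marker tdTomato; feeder cells had been depleted by plating, and GFP+tdTomato+ cells were sorted before RNA extraction. The sort kept cells in which the Oct4 reporter was on, and Oct4 is the protein of Pou5f1, so Pou5f1 was measured in cells gated on its own reporter. Undifferentiated ES cells express the same 10 genes, and no sample of them was analysed here. Nothing in the labels says that samples were grown separately, and p-values may therefore cover technical spread alone. All 3 arrays of a day shared a slide and a scan, so day cannot be told apart from slide; control, hairpin 1 and hairpin 2 sat at the same 3 positions of both slides, so vector cannot be told apart from position.

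Pluripotency is the capacity of a cell to form all tissues of the embryo, and in mouse ES cells it is held by a set of transcription factors that bind each other's genes. Pou5f1, with its partner Sox2, and Nanog form the core. Klf2, Klf4, Klf5, Esrrb, Nr0b1 and Tbx3 connect that core to the LIF, WNT and PI3K signals that keep ES cells in the naive state, the state of the early epiblast. Primordial germ cells switch part of the same network on again, and Dazl, an RNA-binding protein of germ cells, is one of the genes used to recognise them.

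Dazl itself stood at 3.0% and 3.71% of the control level at day 12 (hairpin 2 and hairpin 1) and at 4.19% and 4.46% at day 9 on 1 of its probes, which passed the test (log2 difference -4.72, limma adjusted p = 0.00464). Its other probe stood at 3.54% to 8.28% of control (limma adjusted p = 0.0546). Each array had 70.3% to 73.3% of its probes well above background, the 75th percentile lay between signals of 629 and 746, and arrays correlated with r of 0.98 to 0.99 across probes. All 13 germ cell markers examined were well above background on all 6 arrays. Of the 13, 12 had lower mean levels in the knockdown cells, and 46.8% of all probes tested were higher there. Nanos3 was the marker that was higher (0.17). Differences were small for Kit (-0.04), Dnd1 (-0.10) and Tfap2c (-0.13), and Kit with hairpin 1 was above its control at both days.

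Pou5f1 encodes the POU-domain factor Oct4, without which the network collapses in ES cells; the gene lies on mouse chromosome 17. In knockdown cells its level was 4.31 (hairpin 2) and 4.19 (hairpin 1) at day 12 and 4.41 (hairpin 2) and 4.11 (hairpin 1) at day 9, against 3.60 at day 12 and 3.52 at day 9 in control cells. The 4 knockdown arrays lay within 0.31 of each other and the lowest of them was 0.51 above the higher control. On the linear scale the ratio to the control of the same day was 1.63 and 1.51 at day 12 and 1.86 and 1.5 at day 9. Knockdown arrays averaged 4.25 ± 0.13 (SD, n = 4, 2 hairpins at 2 days) and control arrays 3.56 ± 0.06 (SD, n = 2, 1 vector at 2 days). These SDs thus span days and hairpins and are not spreads of replicates. The fitted difference was 0.70 (SE 0.16), or 1.62-fold, and it did not pass after adjustment over all 30204 probes tested (limma adjusted p = 0.326). In RNA from a whole sorted population, fewer cells of a type and less RNA per cell cannot be told apart, and this holds for every level given here.

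Nanog, on chromosome 6, encodes a homeodomain factor that stabilises the naive state. Its level was 2.95 (hairpin 2) and 2.91 (hairpin 1) at day 12 and 4.03 (hairpin 2) and 3.1 (hairpin 1) at day 9 in knockdown cells, against 2.89 at day 12 and 2.85 at day 9 in control cells. A single array, hairpin 2 at day 9, stood apart, at 2.27 times its control, while the ratios of the other 3 knockdown arrays were 1.04, 1.01 and 1.19. The fitted difference of 0.38 (SE 0.30) was little larger than its error (limma adjusted p = 0.727), and without the hairpin 2 array of day 9 it was 0.13.

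The sequence upstream of the start is shown for Pou5f1, Nanog and Zfp42 because Pou5f1 had the smallest unadjusted p of the 10 genes and Nanog and Zfp42 were the members whose windows held the octamer that Oct4 recognises. RefSeq entries for GRCm38.p6 were matched for 8 of the 10 genes, with 11 windows of 250 bases before the start. Searched on both strands were the octamer ATGCAAA, the SOX motif CATTGT, the ESRRB motif AAGGTCA, the KLF motif GGGNGTGG and the T-box motif AGGTGTGA. Capitals in the lines below mark matches to any of them, read 5′ to 3′ on the strand of the gene.
Pou5f1, chr17:35505782-35506031, plus strand: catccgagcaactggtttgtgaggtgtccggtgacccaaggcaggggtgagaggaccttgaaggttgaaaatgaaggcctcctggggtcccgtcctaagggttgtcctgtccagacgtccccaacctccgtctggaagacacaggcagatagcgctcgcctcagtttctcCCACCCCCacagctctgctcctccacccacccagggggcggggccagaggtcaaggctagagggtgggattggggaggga
Nanog, chr6:122707315-122707564, plus strand: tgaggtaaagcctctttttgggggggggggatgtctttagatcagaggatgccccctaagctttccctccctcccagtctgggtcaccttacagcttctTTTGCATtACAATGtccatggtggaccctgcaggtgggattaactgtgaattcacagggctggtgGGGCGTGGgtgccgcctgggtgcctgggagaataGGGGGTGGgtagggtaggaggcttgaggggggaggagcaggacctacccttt
Zfp42, chr8:43307010-43307259, minus strand: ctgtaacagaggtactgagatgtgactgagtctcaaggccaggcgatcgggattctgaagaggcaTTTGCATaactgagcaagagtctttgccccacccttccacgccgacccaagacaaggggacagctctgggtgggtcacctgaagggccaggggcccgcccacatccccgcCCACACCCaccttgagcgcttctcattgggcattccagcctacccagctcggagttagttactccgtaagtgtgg

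In the Nanog window the octamer and the SOX motif were separated by 1 base, beginning 151 and 143 bases before the start, and the KLF motif was found 2 times. The Zfp42 window held the octamer 185 bases and the KLF motif 75 bases before the start. In the Pou5f1 window shown only the KLF motif was found, 80 bases before the start, and the other Pou5f1 entry held the SOX motif, 158 bases before its start. Among the 11 windows, 3 held the octamer, 3 the SOX motif, 4 the KLF motif and none the ESRRB or T-box motif. Both Nanog entries overlap and share their octamer and SOX letters. Of all 32851 RefSeq promoter windows of that length, 4.12% held the octamer, 10.7% the SOX motif, 15.9% the KLF motif, 4.08% the ESRRB motif and 1.12% the T-box motif. These are matches of letters and say nothing of binding in these cells.

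The 3 Krüppel-like factors are zinc-finger proteins that can replace each other in part in ES cells. Klf2 (chromosome 8) had a level of 6.42 (hairpin 2) and 6.52 (hairpin 1) at day 12 and 5.83 (hairpin 2) and 6.49 (hairpin 1) at day 9 in knockdown cells, against 6.43 at day 12 and 6.79 at day 9 in control cells on its brighter probe. It was the only member with a negative fitted difference on the brightest probe (-0.30, SE 0.25, limma adjusted p = 0.742), and the knockdown and control arrays overlapped. Hairpin 2 at day 9 was the lowest array, at 0.51 times its control, and without it the difference was -0.11; without the day 9 control, the highest array, it was 0.04.

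Klf4 (chromosome 4) had a level of 5.03 (hairpin 2) and 4.90 (hairpin 1) at day 12 and 4.67 (hairpin 2) and 4.97 (hairpin 1) at day 9 in knockdown cells, against 4.72 at day 12 and 4.58 at day 9 in control cells. It was higher than the control of the same day in all 4 knockdown arrays, by ratios of 1.07 to 1.31, though the arrays of the groups overlapped across days. The difference of 0.24 (SE 0.15) did not pass (limma adjusted p = 0.655).

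Klf5 (chromosome 14) had a level of 2.56 (hairpin 2) and 3.12 (hairpin 1) at day 12 and 2.54 (hairpin 2) and 3.06 (hairpin 1) at day 9 in knockdown cells, against 2.23 at day 12 and 2.11 at day 9 in control cells. The 3 vectors kept the same order at both days, with hairpin 1 highest, hairpin 2 between and control lowest. Ratios to control were 1.25 and 1.35 with hairpin 2 (day 12 and day 9) and 1.85 and 1.94 with hairpin 1. The fitted knockdown difference was 0.65 (SE 0.23; limma adjusted p = 0.468).

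Among the factors that tie the core to outside signals, Esrrb is an orphan nuclear receptor and a target of the WNT and TCF7L1 axis; it lies on chromosome 12. Its level on the brighter probe was 3.47 (hairpin 2) and 3.32 (hairpin 1) at day 12 and 4.01 (hairpin 2) and 3.37 (hairpin 1) at day 9 in knockdown cells, against 3.02 at day 12 and 3.32 at day 9 in control cells. Every knockdown array was above both controls, but hairpin 1 at day 9 exceeded its control by only 0.05. The difference was 0.37 (SE 0.21, limma adjusted p = 0.617).

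Nr0b1, on the X chromosome, encodes Dax1, a nuclear receptor without a DNA-binding domain of the usual kind that interacts with Oct4. It had a level of 2.75 (hairpin 2) and 2.59 (hairpin 1) at day 12 and 2.56 (hairpin 2) and 3.16 (hairpin 1) at day 9 in knockdown cells, against 1.54 at day 12 and 2.15 at day 9 in control cells. At day 12 its signal was 2.31 and 2.07 times that of the control, and at day 9 it was 1.33 (hairpin 2) and 2.02 (hairpin 1) times. The lowest knockdown array, at 2.56, was above the higher control, at 2.15. The fitted difference was 0.92 (SE 0.22), or 1.90-fold (limma adjusted p = 0.355).

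Tbx3 (chromosome 5), a T-box factor downstream of PI3K and MAPK signals, had a level of 3.95 (hairpin 2) and 3.92 (hairpin 1) at day 12 and 3.24 (hairpin 2) and 3.82 (hairpin 1) at day 9 in knockdown cells, against 3.60 at day 12 and 3.70 at day 9 in control cells on the brighter probe. One knockdown array lay below both controls and the other 3 above them, so the groups overlapped. The difference was 0.08 (SE 0.22, limma adjusted p = 0.941).

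Tcl1 and Zfp42 stand further downstream. Tcl1 (chromosome 12) encodes a co-activator of the kinase AKT and is a target of Oct4 in ES cells. Its level was 2.98 (hairpin 2) and 2.47 (hairpin 1) at day 12 and 3.45 (hairpin 2) and 2.44 (hairpin 1) at day 9 in knockdown cells, against 1.67 at day 12 and 2.05 at day 9 in control cells. Here hairpin 2 was the highest vector at both days, at 2.48 and 2.62 times control, with hairpin 1 at 1.74 and 1.31 times. The fitted difference, 0.97 (SE 0.31), or 1.96-fold, was the highest of the 10 genes and did not pass (limma adjusted p = 0.432).

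Zfp42 (chromosome 8) encodes Rex1, a zinc-finger protein used as a marker of naive cells. It had a level of 5.28 (hairpin 2) and 5.08 (hairpin 1) at day 12 and 4.95 (hairpin 2) and 5.39 (hairpin 1) at day 9 in knockdown cells, against 4.90 at day 12 and 5.38 at day 9 in control cells. The knockdown arrays lay inside the range set by the 2 controls except for hairpin 1 at day 9, which exceeded its control, the higher of the 2, by 0.0092. The difference was 0.03 (SE 0.21, limma adjusted p = 0.975), with a 95% interval of -0.47 to 0.54.

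**Figure D1:**
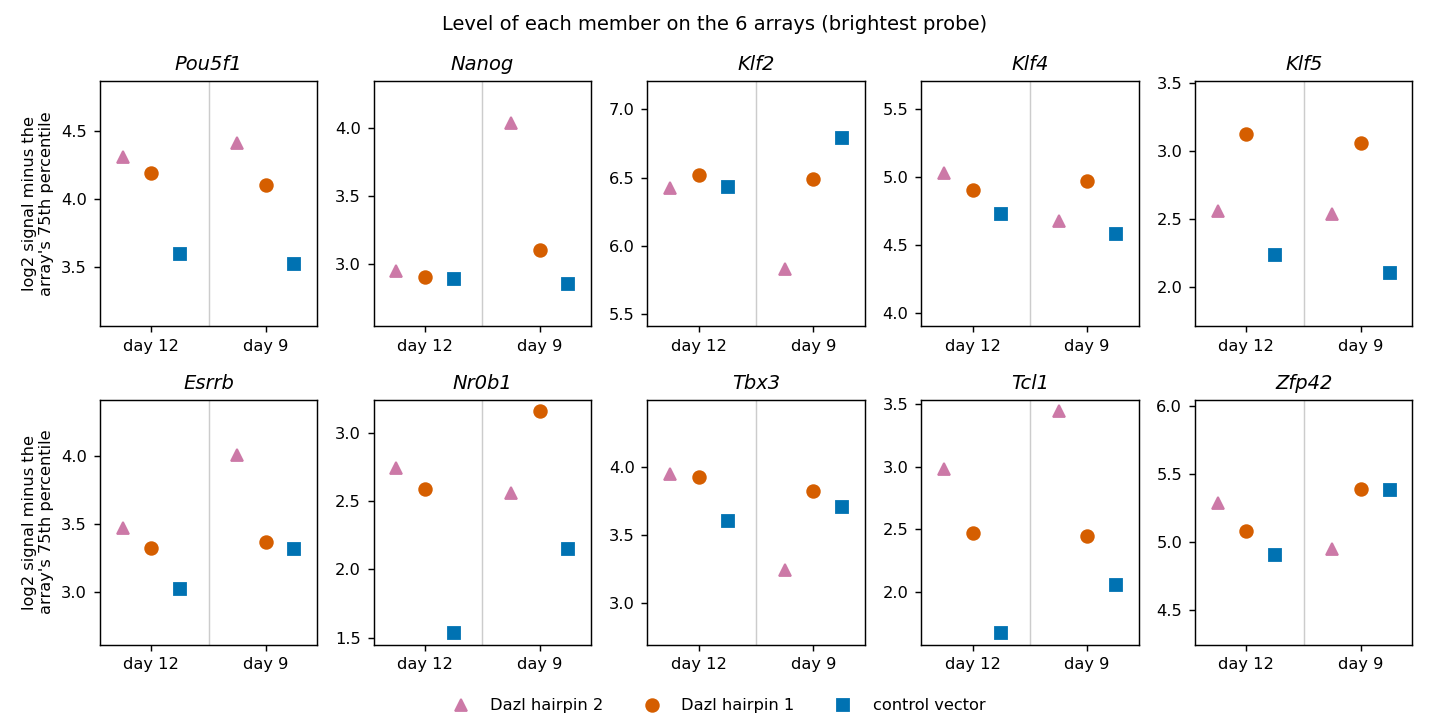
Levels of the 10 genes on the 6 arrays, with 1 panel per gene and the brightest probe of each; the y axis is the log2 signal minus the 75th percentile of the array and the x axis the day, and each point is 1 array of hairpin 2, hairpin 1 or control. Pou5f1, Nr0b1, Tcl1, Klf5, Klf4, Nanog and Esrrb have both hairpins above the same day's control at both days, narrowly on some arrays of Nanog and Esrrb. Zfp42, Klf2 and Tbx3 have overlapping vectors.

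Seen as a network, most members had higher levels in the knockdown cells, and none passed the test. The members were chosen with earlier results of these data known, and all were compared with the same control arrays. The shares of all probes given beside their counts are therefore no test of the set. The fitted difference was positive for 9 of the 10 genes, with a median of 0.38, against a median of -0.02 over all probes tested, of which 46.8% were higher. Higher levels than the same day's control in all 4 knockdown arrays were found for 7 members (Pou5f1, Nanog, Klf4, Klf5, Esrrb, Nr0b1 and Tcl1), a pattern that 14.9% of all probes showed. No member was lower in all 4 pairs, a pattern of 19.1% of all probes. For 6 members every knockdown array lay above both control arrays, against 8.65% of all probes. The gap was 0.51 for Pou5f1, 0.42 for Nr0b1, 0.39 for Tcl1 and 0.31 for Klf5, but 0.018 for Nanog and 0.0074 for Esrrb. An unadjusted limma p under 0.05 was reached by 4 members, all higher (Pou5f1, Nr0b1, Tcl1 and Klf5), against 4.35% of all probes in that direction and 5.53% in the lower one. After adjustment 0 of the 10 passed, as did 0.00662% of all probes, which were 1 Dazl probe and 1 Lgi1 probe. With the vector as a replicate block, 4 probes (0.0132%) were called and again no member. The lowest limma adjusted p of a member was 0.150, for Tcl1. That fit gave each vector its own term, so differences between the hairpins did not count as error. For Tbx3, Zfp42 and Klf2 the direction rests on single arrays: without the day 12 control array Tbx3 was at -0.17 and Zfp42 at -0.21, and without the day 9 control array Klf2 was at 0.04.

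**Figure D2:**
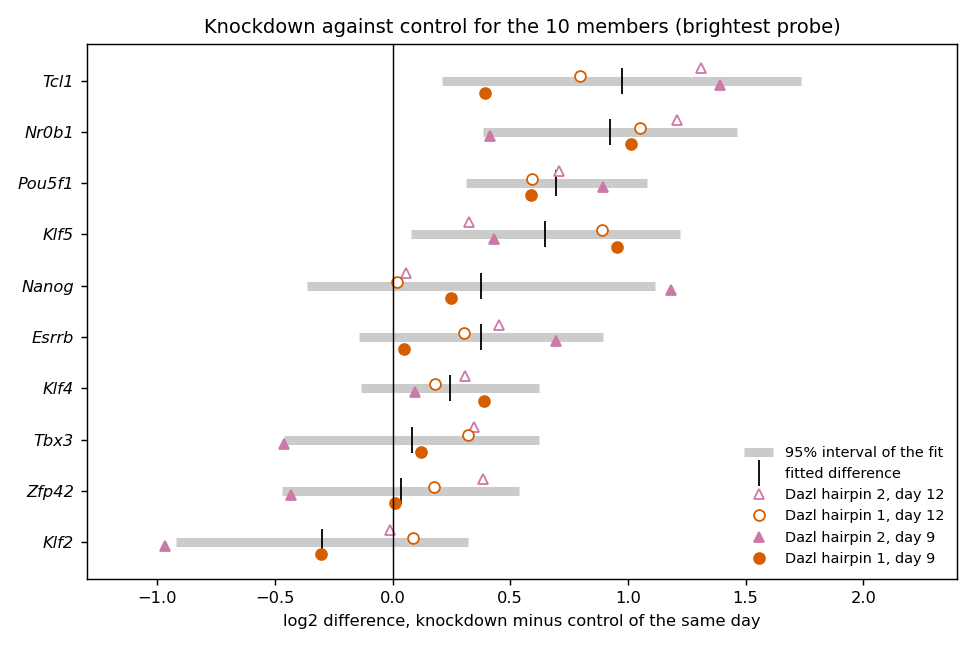
Knockdown minus control for the 10 genes in log2 units, brightest probe, ordered by the fitted difference; points are the 4 knockdown arrays minus the control array of the same day, black ticks the fitted difference and grey bars its 95% interval. The points of Tcl1, Nr0b1, Pou5f1, Klf5, Nanog, Esrrb and Klf4 all lie above 0. The intervals, not adjusted for the number of probes tested, leave out 0 for Tcl1, Nr0b1, Pou5f1 and Klf5 only.

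Taken by day, all 10 members had a positive difference at day 12, with a median of 0.36, and 7 of 10 did at day 9, with a median of 0.53; Klf2 (-0.64), Tbx3 (-0.17) and Zfp42 (-0.21) were the 3 that did not. With 1 control array per day these fits assume that it varies like the knockdown pairs. No member was called at either day, nor was any probe (0% at both days). At an unadjusted limma p under 0.05 there was 1 member at day 12 (Nr0b1, 1.13, SE 0.33) and 1 at day 9 (Pou5f1, 0.74, SE 0.26), both higher, against 2.26% (day 12) and 1.71% (day 9) of all probes in that direction and 2.35% and 2.1% in the lower one. The knockdown difference at day 12 minus that at day 9 ranged from -0.68 (Nanog, SE 0.60) to 0.67 (Klf2, SE 0.48), and for no member did it pass (limma adjusted p = 1.0). Pou5f1, Klf5, Klf4 and Esrrb had differences between the days of -0.09, -0.08, 0.00039 and 0.00585, with SEs of 0.37 to 0.52, so a change of about the size of the effect itself would not have been detectable. No probe was called for this difference without the block (0%). At an unadjusted limma p under 0.05, 0.715% of probes were higher and 0.798% lower. With the vector as a replicate block 22 probes (0.0728%), none of them a member, were called. That fit had nearly as many terms as arrays, so the spread of a probe was mostly borrowed from all probes.

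No single order of the hairpins held across members. Hairpin 2 gave higher levels than hairpin 1 at both days for Tcl1, Esrrb, Nanog and Pou5f1, and lower levels at both days for Klf5 and Klf2, on the brightest probe. Over all probes tested 30.5% were higher with hairpin 2 at both days and 27.8% lower. Tcl1 with hairpin 2 was 1.43 times hairpin 1 at day 12 and 2.0 times at day 9, a fitted difference of 0.76 (SE 0.20; limma adjusted p = 0.299). Klf5 with hairpin 2 was 0.68 times hairpin 1 at day 12 and 0.70 times at day 9, a fitted difference of -0.54 (SE 0.17; limma adjusted p = 0.364). These were the 2 of 10 members under an unadjusted p of 0.05, and 5.17% of all probes reached it in the higher and 5.49% in the lower direction; adjusted, 0.00331% of probes passed. The 10 members were 4 higher and 6 lower, with a median of -0.10, against 0.01 over all probes.

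Much of what separated the hairpins lay in the day 9 pair. At day 12 the hairpin 2 minus hairpin 1 difference lay between -0.10 and 0.21 for 8 of the 10 genes, with Tcl1 (0.51) and Klf5 (-0.56) outside. At day 9 it was 0.93 for Nanog, 0.64 for Esrrb and 1.0 for Tcl1, but -0.66 for Klf2, -0.60 for Nr0b1, -0.58 for Tbx3 and -0.44 for Zfp42. The hairpin 2 array of day 9 was the highest of all 6 for Pou5f1, Nanog, Esrrb and Tcl1 and the lowest of all 6 for Klf2 and Tbx3. The summed signal of epithelial markers was lower with hairpin 2: that of 12 such genes, relative to the 75th percentile, was 226 with hairpin 2 and 316 with hairpin 1 at day 12 and 189 with hairpin 2 and 353 with hairpin 1 at day 9, against 219 at day 12 and 253 at day 9 in control cells. That sum rests mostly on the bright keratin probes, such as Krt18, at 6.97 (hairpin 2) and 7.49 (hairpin 1) at day 12 and 6.68 (hairpin 2) and 7.64 (hairpin 1) at day 9. Of the 10 epithelial markers tested, 4 (Vil1, Tff3, Cldn4 and Cldn7) were higher with hairpin 2 and 6 lower, with a median of -0.36, and none passed the test. Other marker lists were further apart between the hairpins. With hairpin 2, 9 of 10 fibroblast and feeder markers (median 0.84) and 3 of 9 endoderm markers (median -0.67) were higher. For germ cell markers it was 7 of 13 (median 0.02), and 51.6% of all probes tested were higher. Klf5 is also expressed in epithelium, and the part of those cells in its hairpin difference was not tested.

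**Figure D3:**
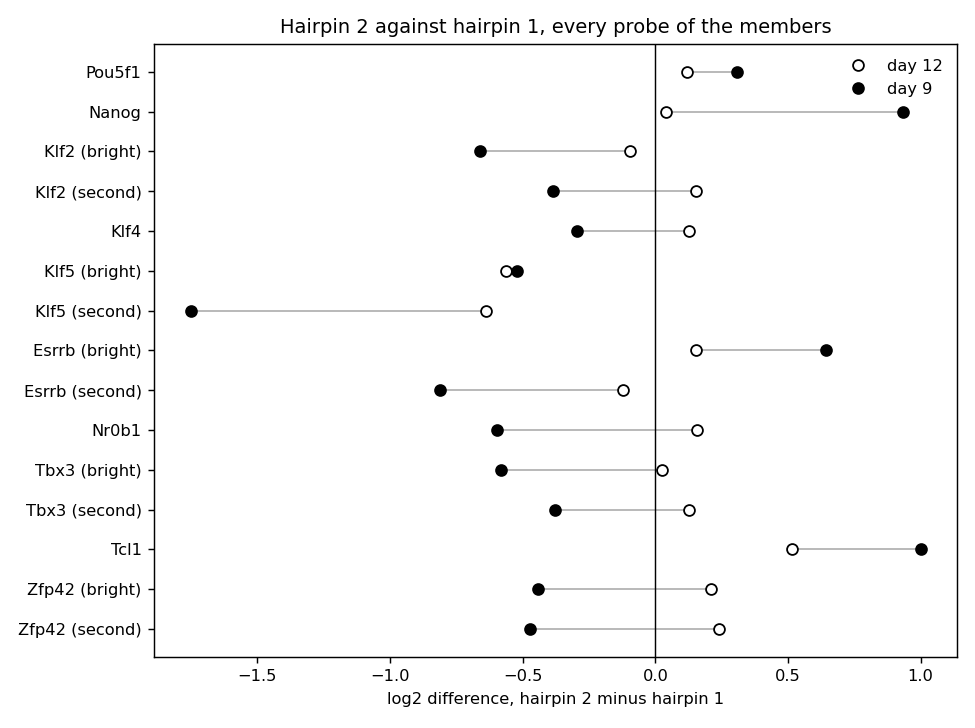
Hairpin 2 minus hairpin 1 in log2 units for each of the 15 probes; open points are day 12 and filled points day 9, joined by a line for each probe. Tcl1 lies above 0 and both Klf5 probes below 0 at both days, and most other probes are near 0 at day 12 and further out at day 9.

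At day 12 against day 9 the members had no common direction. Across vectors, 5 members were higher and 5 lower at day 12, with a median of -0.07, against 0.00395 over all probes. Klf5 was the member higher at day 12 in all 3 vectors, by 0.02 (hairpin 2), 0.06 (hairpin 1) and 0.13 (control), and 20.4% of all probes were higher in all 3. Esrrb was lower at day 12 in all 3, by -0.53 (hairpin 2), -0.04 (hairpin 1) and -0.29 (control), as were 18.5% of all probes. The difference that was furthest from 0 among the brightest probes, Nanog at -0.41 (SE 0.28, limma adjusted p = 0.666), came from hairpin 2, where Nanog was at 2.95 at day 12 and 4.03 at day 9; in control cells it was at 2.89 and 2.85. Pou5f1 differed by 0.02 (SE 0.15), with a 95% interval of -0.34 to 0.38. No brightest probe of a member had an unadjusted p under 0.05, against 6.48% of all probes in the higher and 4.2% in the lower direction. None was called, against 17 probes (0.0563%) in all; with the vector as a replicate block 245 probes (0.811%) were called, and no member.

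The second probes of 5 genes gave a check on the same gene. For Zfp42 both probes agreed closely: the second had a level of 3.97 (hairpin 2) and 3.73 (hairpin 1) at day 12 and 3.59 (hairpin 2) and 4.07 (hairpin 1) at day 9 in knockdown cells, against 3.76 at day 12 and 4.05 at day 9 in control cells, and its knockdown difference was -0.06 (SE 0.20) beside 0.03. For Klf5 the second probe, of cDNA BC006646, was dim, with signals of 26.7 to 79.1. Its level was -3.99 (hairpin 2) and -3.35 (hairpin 1) at day 12 and -4.80 (hairpin 2) and -3.05 (hairpin 1) at day 9 in knockdown cells, against -4.52 at day 12 and -4.47 at day 9 in control cells. It too was highest with hairpin 1 at both days, and its hairpin difference was -1.20 (SE 0.29; limma adjusted p = 0.275).

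The probes of Klf2, both annotated to NM_008452 and of about the same brightness, disagreed. The second had a level of 6.25 (hairpin 2) and 6.10 (hairpin 1) at day 12 and 6.48 (hairpin 2) and 6.87 (hairpin 1) at day 9 in knockdown cells, against 6.01 at day 12 and 6.70 at day 9 in control cells. It was lower at day 12 in all 3 vectors (fitted difference -0.56, SE 0.16; limma adjusted p = 0.307), whereas the brighter probe differed by 0.09 (SE 0.24). Its knockdown difference was 0.07 (SE 0.17), beside -0.30 on the brighter one. All 6 values of both Klf2 probes came from the scanner's low-gain pass, which Feature Extraction scales up for bright spots. Among the other members the low-gain pass gave 5 of 6 values for Klf4, all but the day 9 control, and 5 of 6 for the brighter Zfp42 probe, all but the day 12 control; its part in these differences was not tested.

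Esrrb and Tbx3 each had a dim second probe annotated to a cDNA. That of Esrrb (AK044339) had a level of -2.98 (hairpin 2) and -2.86 (hairpin 1) at day 12 and -3.43 (hairpin 2) and -2.62 (hairpin 1) at day 9 in knockdown cells, against -3.39 at day 12 and -2.73 at day 9 in control cells. It did not follow the brighter probe: hairpin 2 at day 9, the highest array there, was the lowest here, and its knockdown difference was 0.09 (SE 0.29). That of Tbx3 (AK031708), with signals of 12.2 to 22.3, had a level of -4.83 (hairpin 2) and -4.96 (hairpin 1) at day 12 and -5.67 (hairpin 2) and -5.30 (hairpin 1) at day 9 in knockdown cells, against -5.11 at day 12 and -5.69 at day 9 in control cells. Unlike the brighter probe it was higher at day 12 in all 3 vectors (0.59, SE 0.16; limma adjusted p = 0.270). Over all 15 probes, 13 had a positive knockdown difference and 8 were higher in all 4 pairs.

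**Figure D4:**
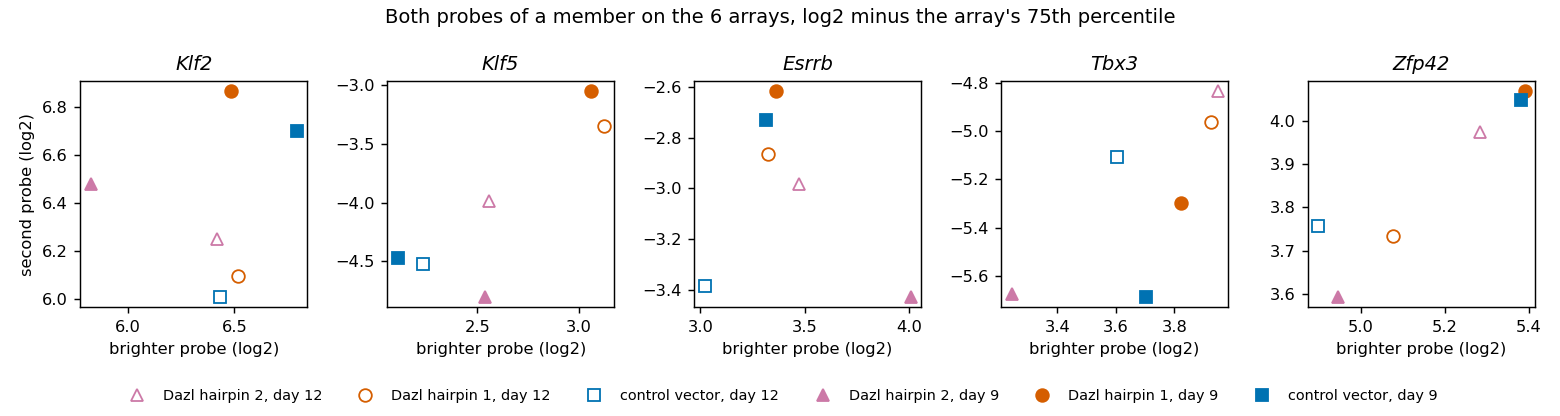
The brighter probe (x axis) against the second probe (y axis) of the 5 genes that had 2, both as log2 signal minus the 75th percentile of the array; each point is 1 of the 6 arrays, open at day 12 and filled at day 9. Zfp42 and Klf5 arrays run broadly from lower left to upper right, whereas Klf2 and Esrrb arrays do not.

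The genes whose levels over the 6 arrays were most like those of Pou5f1, among 13432 probes that varied with an SD of at least 0.25 and were well above background on all 6 arrays, were Slc1a5 (r = 0.997), a glutamine transporter, Ccnjl (r = 0.994), a cyclin-like gene, Rcn1 (r = 0.993), a calcium-binding protein of the endoplasmic reticulum, Lmbr1 (r = 0.993) and Nfib (r = 0.990), a transcription factor. Slc1a5 stood at 4.03 (hairpin 2) and 3.92 (hairpin 1) at day 12 and 4.06 (hairpin 2) and 3.87 (hairpin 1) at day 9 in knockdown cells, against 3.51 at day 12 and 3.43 at day 9 in control cells. Like Pou5f1, it was thus higher on all 4 knockdown arrays than on either control. The mean profile of the 10 members, each centred on its own average, was 0.15 (hairpin 2) and 0.08 (hairpin 1) at day 12 and 0.15 (hairpin 2) and 0.17 (hairpin 1) at day 9 in knockdown cells, against -0.36 at day 12 and -0.18 at day 9 in control cells. Behind that mean the members did not share a profile. Between pairs of members r ran from -0.92 (Klf2 and Nanog) to 0.93 (Tcl1 and Esrrb). Genes most like that mean were Gstk1, Sfxn1, Slco4a1, Kif5a and 2310001H17Rik, with r of 0.988 to 0.993. These correlations are descriptions over 6 arrays that share RNA samples and scaling, chosen as the highest of many, and carry no test.

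Around the 10 members, 4 further lists of genes were examined by the brightest probe of each gene, and no gene of any list passed the test for knockdown against control. Of 30 further pluripotency genes 27 were measured, 18 higher and 9 lower, with a median of 0.15; 7 were higher in all 4 pairs and 4 lower in all 4, against the 14.9% and 19.1% of all probes given above. The most separated were Tdgf1 (1.03, SE 0.19), a co-receptor of Nodal, Jam2 (0.97, SE 0.15), a junction protein, Rif1 (-1.05, SE 0.40), a regulator of replication timing, and Dppa3 (-0.62, SE 0.28), a maternal and germ cell protein. Jam2 had a level of 5.19 (hairpin 2) and 4.99 (hairpin 1) at day 12 and 4.68 (hairpin 2) and 4.86 (hairpin 1) at day 9 in knockdown cells, against 4.01 at day 12 and 3.90 at day 9 in control cells (limma adjusted p = 0.236). The 4 knockdown arrays of Jam2 did not overlap the controls.

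Genes of the LIF and STAT3 pathway, which sustains the naive state in culture, were measured for 9 of 10 and were 4 higher and 5 lower, with a median of -0.09. Their differences ran from -0.42 (SE 0.32) for Stat3, the transcription factor of the pathway, to 0.38 (SE 0.19) for Il6st, the shared receptor chain. The FGF and ERK pathway and the TCF7L1 branch push cells out of the naive state. Genes of both were listed whatever their own direction of action. They were measured for 13 of 15, with 6 higher and 7 lower and a median of -0.02. Among them Etv4, an ETS factor that FGF signals induce, had a level of -0.32 (hairpin 2) and -0.12 (hairpin 1) at day 12 and -0.31 (hairpin 2) and -0.29 (hairpin 1) at day 9 in knockdown cells, against -1.12 at day 12 and -1.5 at day 9 in control cells (difference 1.05, SE 0.15; limma adjusted p = 0.228). The groups did not overlap for Etv4, and its relative Etv5 was higher in all 4 pairs (0.67, SE 0.24). Fgfr2, a receptor of the pathway, was lower in all 4 pairs (-0.67, SE 0.32), and Fgfr1 had a difference of 0.55 (SE 0.25).

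Markers of primed epiblast, the state that follows the naive one, were measured for 12 of 12, with 6 higher and 6 lower and a median of -0.08. In all 4 pairs 3 were higher and 5 lower, against 14.9% and 19.1% of all probes. An unadjusted limma p under 0.05 was reached by 6, in both directions, against 4.35% of all probes higher and 5.53% lower. Fgf5, a growth factor of the primed epiblast, had a difference of 0.73 (SE 0.26), Foxd3, a forkhead factor, of 0.66 (SE 0.21) and Sox4, an HMG-box factor, of -1.05 (SE 0.20; limma adjusted p = 0.288). Cer1, a Nodal and BMP antagonist, was well above background on 2 of the 6 arrays and is given no fold. Those 2 arrays alone let it pass the filter. It is still counted in the median, among the 6 higher genes and among the 3 higher in all 4 pairs. With hairpin 1 at day 9 that count rests on -8.77 against -8.79 in the control.

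**Figure D5:**
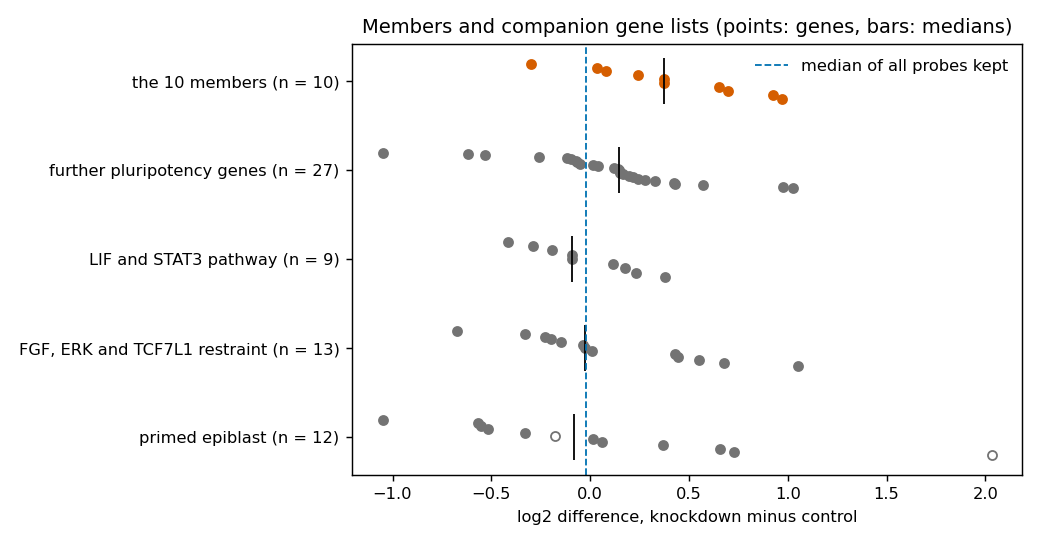
Fitted knockdown minus control differences in log2 units for the 10 members and for the measured genes of 4 further lists; each point is a gene, black bars are list medians and the dashed line is the median of all probes tested. Open points are 2 genes of the primed epiblast list that were not well above background on every array. The median of the members is 0.38, and those of the lists are 0.15, -0.09, -0.02 and -0.08.

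Among markers of other cell types no gene passed the test for knockdown against control. All 10 fibroblast and feeder markers had higher mean levels in the knockdown cells (median 0.90), while 46.8% of all probes tested were higher. Of the 10, 9 were higher with hairpin 2 than with hairpin 1, with a median of 0.84. At day 9 hairpin 1 was below its control for Col1a2, Thy1 and Dcn, and hairpin 2 was for S100a4. Their summed signal relative to the 75th percentile ranged from 3.56 to 8.15 on knockdown arrays and from 2.15 to 5.52 on control arrays. Lum, Dcn and Lox were not above background on all 6 arrays. Of 9 endoderm markers tested 8 were higher (median 0.83), with sums of 2.22 to 3.75 on knockdown arrays and 1.61 to 1.89 on control arrays, and Ttr was above background on none. The germ cell markers had sums of 96.8 to 217 on knockdown arrays and 197 to 258 on control arrays. Those sums rest mostly on the bright Stra8 probe. Stra8 was at 6.94 (hairpin 2) and 7.45 (hairpin 1) at day 12, against 7.68 in the control. At day 9 it was at 5.84 (hairpin 2) and 6.45 (hairpin 1), against 7.16 in the control. Epithelial markers were 6 higher and 4 lower (median 0.17), and Cdh17 and Fabp1 were above background on none of the arrays. Klf4, Klf5 and Tbx3 are expressed in some of these cell types as well as in pluripotent cells, and the part of other cells in the levels of the 10 genes was not tested.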

How the data were processed

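Total RNA of 6 samples was hybridised in 1 colour to Agilent whole-genome arrays. Per the file headers, spot intensity values came from Agilent Feature Extraction 9.1.3.1, after detrending and background subtraction within the array. A deposited table of processed values gave a ratio: signal less background over 1 constant for the array, per the values tested here; the quality score in the deposited files served to match all 41529 entries to spots.

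Processed signals were averaged over spots of a probe, taken to log2 and set to 0 at each array's 75th percentile. Of 41174 probes, 35 flagged as outliers in every spot of an array were left out, and the 30204 well above background on at least 2 arrays were kept. All probes of a member were used, the brightest first. The linear models used limma 3.58.1 (R 4.3.3), two-sided, with Benjamini-Hochberg adjusted p under 0.05 over all kept probes. Knockdown and day were terms of 1 fit; a fit of 4 groups gave each day's effect, and a fit of vector and day compared the hairpins. Up to 4 genes of largest knockdown difference were named per further list, and 5 by likeness. The number of arrays limits the precision. Fits were tested on simulated data. The members and lists were chosen with earlier results of these data known.

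Vectors paired the arrays: deviations from the day's mean correlated across probes with r of 0.37 (control), 0.50 (hairpin 1) and 0.24 (hairpin 2) between days for the same vector, and from -0.31 to -0.04 for different vectors. The main fit of knockdown and day treated the arrays of a vector as independent. A replicate block for the vector, fitted as a term for each vector, was therefore an alternative. Its knockdown test set the average of the hairpins against a single control vector, with differences between the hairpins left out of the error. Background correction, normalization, filter, unit of test, the deposited table, the variance prior and leaving out each array were the other alternatives. A gene table for GRCm38.p6 gave names and chromosomes, and RefSeq windows gave the sequences.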

Additional observations from a re-analysis of the deposited data

Results flagged for a closer look

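On the brighter Klf2 probe the hairpin 2 array of day 9, at 5.83, lay far from the other 3 knockdown arrays, which were at 6.42 (hairpin 2) and 6.52 (hairpin 1) at day 12 and 6.49 (hairpin 1) at day 9. The gap to the nearest array was 0.861 of the whole range of the 4, above Dixon's 95% critical value for 4 values. The 4 knockdown arrays of 15 probes were examined in this way and 1 was flagged; chance flags about 1 in 20 such groups. The second Klf2 probe had 6.48 on that array, inside the range of the other knockdown arrays.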

How the results depend on the processing

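No member passed the test for knockdown or day under any of the alternatives run (lowest limma adjusted p 0.147 and 0.126), and the number of members higher in knockdown cells was 8 or 9 under those that kept all arrays and 7 to 10 with 1 array left out. Their median knockdown difference was 0.31 with the mean of each gene's probes and 0.27 to 0.53 with 1 array left out. With normexp 6 members, not 7, were higher in all 4 pairs. Calls over all probes were few and moved with the setting. For knockdown against control, with 2 calls, there were 0 by gene with the brightest probe, 1 by gene with the mean, 1 with the authors' deposited table, 4 with the replicate block for the vector and 0 to 1 with an array left out. For day 12 against day 9, with 17 calls, there were 1 with normexp, 10 with quantile normalization, 0 without a filter, 30 and 30 by gene, 6 with the deposited table, 4 with a trend and robust prior, 245 with the replicate block and 0 to 3 with an array left out. For hairpin 2 against hairpin 1, with 1 call, there were 91 with normexp, 3 with probes above background on all 6 arrays, 0 without a filter, 14 by gene with the brightest probe and 2 with the mean, 2 with the deposited table, 30 with the trend and robust prior and 0 to 1225 with an array left out. The difference of the knockdown effect between days had 0 calls and 22 with the replicate block; the effects at each day had 0 throughout. The cause was not tested. With 1 array left out, 3 to 5 members were higher at day 12 and 4 to 8 with hairpin 2. The dim Klf5 probe passed for the hairpins without the day 12 control or the day 9 control (limma adjusted p = 0.0333 for either) and without hairpin 2 at day 12 (0.0472); no other member probe passed in the alternatives run.

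Some signs turned. For knockdown, Zfp42 was at -0.013 with the mean of its probes. For day, Pou5f1 was at -0.00407 with quantile normalization and -0.033 with the deposited table, Klf2 at -0.24 with the mean of its probes, and the dim Klf5 and Tbx3 probes at -0.27 and -0.21 with normexp. For the hairpins, Esrrb was at -0.035 with the mean of its probes, and the dim Esrrb and Tbx3 probes at 0.060 and 0.43 with normexp. With 1 array left out, the knockdown difference ranged from -0.64 to 0.038 for Klf2 (second probe -0.028 to 0.16), -0.17 to 0.33 for Tbx3, -0.21 to 0.28 for Zfp42 (second probe -0.22 to 0.10) and -0.29 to 0.46 for the dim Esrrb probe. The hairpin difference ranged from -0.018 to 0.99 for Nanog, -0.76 to 0.00169 for Klf2 (second probe -0.37 to 0.13), -0.24 to 0.074 for Klf4, -0.61 to 0.17 for Nr0b1, -0.63 to 0.074 for Tbx3 (dim probe -0.32 to 0.064) and -0.48 to 0.25 for Zfp42 (second probe -0.46 to 0.23). The day difference ranged from -0.061 to 0.12 for Pou5f1, -0.16 to 0.31 for Klf2, -0.083 to 0.24 for Klf5 (dim probe -0.37 to 0.63), -0.46 to 0.10 for the dim Esrrb probe and -0.33 to 0.012 for Zfp42 (second probe -0.25 to 0.025). A day's effect, and its difference between days, could not be fitted without that day's only control array.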

Other observations

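Both de novo DNA methyltransferases of the primed epiblast list had lower levels in knockdown cells than in the control of the same day on all 4 knockdown arrays, and were chosen for mention after their values were seen. Dnmt3a had a level of 0.46 (hairpin 2) and 0.43 (hairpin 1) at day 12 and 0.21 (hairpin 2) and 0.78 (hairpin 1) at day 9, against 1.16 at day 12 and 0.90 at day 9 in control cells (difference -0.55, SE 0.21; limma adjusted p = 0.477). Dnmt3b had a level of 1.22 (hairpin 2) and 0.99 (hairpin 1) at day 12 and 1.26 (hairpin 2) and 1.34 (hairpin 1) at day 9, against 1.96 at day 12 and 1.58 at day 9 in control cells (difference -0.57, SE 0.19; limma adjusted p = 0.443). Neither passed the test, and 19.1% of all probes were lower in all 4 pairs. Phc1, a Polycomb subunit from the further pluripotency genes and likewise chosen after its values were seen, was higher on all 4 (difference 0.57, SE 0.15; limma adjusted p = 0.374).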
